A study of Homo sapiens with 8 samples.

Results

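The ABL kinases ABL1 and ABL2 and 8 of their adaptor and substrate genes (CRK, CRKL, ABI1, ABI2, BCAR1, RIN1, CTTN and WASF2) were followed through 8 RNA-seq samples of LM2 cells. The 10 genes were picked by symbol and matched to the Ensembl identifiers of the 58688 genes counted, and all 10 were found and passed the filter on low counts. The triple-negative breast cancer line LM2 was selected from human MDA-MB-231 cells for metastasis to the lung. In the drug experiment, LM2 cells received DMSO (n = 2) or 1 µM Ponatinib for 6 h (n = 2), Ponatinib being a small-molecule inhibitor of ABL and several other tyrosine kinases. In the knockdown experiment, stable LM2 lines made with lentivirus carried a scrambled short hairpin RNA (shCtrl), ABL1 shRNA, ABL2 shRNA or ABL1/ABL2 shRNA, which targets both kinases, with 1 sample each and no replicates. The study's methods name 1 purchased hairpin plasmid for each kinase, so each knockdown rests on a single hairpin per target, and they do not say whether a line was a clone or a pool. The sequences of the ABL1 and ABL2 hairpins were not used here. The comparisons asked how far each kinase mRNA was lowered, whether the paralog or the partners moved with it, and what the drug did to the same genes.

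ABL1 and ABL2 are paralogous non-receptor tyrosine kinases that link growth factor and integrin signals to the actin cytoskeleton, and both bind F-actin through their C-terminal ends. They phosphorylate the SH2-SH3 adaptors CRK and CRKL, the docking protein BCAR1 (p130Cas) that recruits CRK at adhesions, and cortactin (CTTN), an actin regulator of protrusions and invadopodia. ABI1 and ABI2 bind the kinases and are subunits of the WAVE complex, whose member WASF2 (WAVE2) switches on ARP2/3-driven actin branching, and RIN1 is a RAS effector and RAB5 exchange factor that stimulates ABL activity.

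Counts on genes summed to between 7568934 (Ponatinib replicate 2) and 13010896 (ABL1 shRNA) per sample. Values are given as normalized CPM, counts scaled by TMM to a common library size, which corrects for depth and composition. A name inside the shCtrl count file reads as the ABL1 knockdown and the reverse holds in the ABL1 shRNA file. The ABL1 count was 2159 in the library labelled shCtrl and 944 in the library labelled ABL1 shRNA, which goes with the labels, and the labels were followed. The mesenchymal and keratin markers VIM, CD44, KRT18 and KRT8 were present in all 8 samples (lowest 143 CPM), PGR had 0 counts throughout and ESR1 had 3 to 11. CDH1 (0 to 23 counts), the leukocyte marker PTPRC (0 to 3) and the hepatocyte marker ALB (0 to 2) were near 0, whereas the endothelial marker PECAM1 ranged from 2.34 to 3.99 CPM in the drug experiment and from 20.3 to 39.3 CPM in the knockdown experiment. Of the 4 shRNA samples, shCtrl stood furthest apart, with 405 genes more than 2-fold from all 3 others, beside 170 for ABL1 shRNA, 228 for ABL2 shRNA and 106 for ABL1/ABL2 shRNA. A gene that is lower or higher in all 3 knockdowns is equally a gene in which shCtrl differs, and with 1 sample each a knockdown effect and a property of the shCtrl sample cannot be told apart. The labels do not say that the replicates came from separate cultures, so p-values measure only the spread between these samples.

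ABL1 lies on chromosome 9 (GRCh38, chr9:130713043-130887675, plus strand) and ABL2 on chromosome 1 (chr1:179099330-179229684, minus strand). Since the paralogs were counted separately, their transcripts in GENCODE v44 were compared for stretches that reads or hairpins could share. The longest identical stretch is shown because it bounds how much of the 2 kinase mRNAs cannot be told apart. It is 23 bases long, is coding and lies within 1 exon in each gene (chr9:130884133-130884155, plus, and chr1:179109249-179109271, minus).
ABL1 and ABL2 shared stretch: cccaaacgcagcagctccttccg
For the adaptor pair, CRK (chr17:1420689-1463162, minus) and CRKL (chr22:20917407-20953747, plus), the longest shared stretch is 21 coding bases (chr17:1455929-1455949 and chr22:20918106-20918126).
CRK and CRKL shared stretch: gtctcccactacatcatcaac
Only 3 of the 6989 distinct 21-base words of the ABL1 transcripts occur in those of ABL2, and 1 such word is shared between CRK and CRKL. ABI1 and ABI2 share no 21-base word. No pair shares a word of 31 bases. Overlap with other genes is a larger limit for ABI2 (chr2:203328280-203447728, plus), of which 38.2% of exon bases lie opposite to exons of RAPH1 or of a further annotated gene. The share of exon bases that overlap another gene on either strand was 1.42% for ABL1, 4.88% for ABI1 (chr10:26746593-26861087, minus), 6.96% for RIN1 (chr11:66330241-66336840, minus), 8.75% for BCAR1 (chr16:75228181-75268053, minus) and 1.22% for CTTN (chr11:70398404-70436584, plus). No exon base of ABL2, CRK, CRKL or WASF2 (chr1:27404230-27490167, minus) is shared. The strand setting of the counting is not given in the sources used here, so reads of ABI2 and its antisense neighbours may be mixed.

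Promoter windows from RefSeq (GRCh38.p14, 250 bases before to 50 after an annotated start) were matched for 8 of the 10 genes, with 1 window each except for 5 of BCAR1. CTTN, which also fell after Ponatinib, and WASF2 had no window. Those of ABL2, ABL1 and the first window of BCAR1 are shown because ABL2 and BCAR1 moved in the same direction after Ponatinib and ABL1 in the other. Both strands were searched for AP-1 (TGANTCA), CRE (TGACGTCA), ETS (CCGGAAG), TEAD (GGAATG), SP (GGGCGG) and E-box (CACGTG) letters, a set chosen after the levels were known. Capitals mark the matches to AP-1 and SP letters.
ABL2, chr1:179143027-179143326, minus strand: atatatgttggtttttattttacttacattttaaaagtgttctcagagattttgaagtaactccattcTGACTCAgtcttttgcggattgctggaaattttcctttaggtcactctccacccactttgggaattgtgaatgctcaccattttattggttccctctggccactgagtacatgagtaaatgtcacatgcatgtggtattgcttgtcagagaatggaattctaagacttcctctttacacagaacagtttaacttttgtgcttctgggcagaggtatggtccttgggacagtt
ABL1, chr9:130835004-130835303, plus strand: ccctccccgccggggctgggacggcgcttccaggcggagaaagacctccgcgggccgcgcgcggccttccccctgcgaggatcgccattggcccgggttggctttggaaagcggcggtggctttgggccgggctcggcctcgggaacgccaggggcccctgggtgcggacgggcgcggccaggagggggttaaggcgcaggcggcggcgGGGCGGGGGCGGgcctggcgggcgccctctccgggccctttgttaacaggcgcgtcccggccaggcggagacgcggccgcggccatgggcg
BCAR1 window 1, chr16:75267958-75268257, minus strand: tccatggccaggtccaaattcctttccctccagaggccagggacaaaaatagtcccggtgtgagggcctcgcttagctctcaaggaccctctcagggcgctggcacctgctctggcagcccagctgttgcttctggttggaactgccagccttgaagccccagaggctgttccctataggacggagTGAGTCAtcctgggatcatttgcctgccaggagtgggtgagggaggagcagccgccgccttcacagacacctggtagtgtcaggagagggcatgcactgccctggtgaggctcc
The ABL2 window is 39% G+C and holds 1 AP-1 match, beginning 182 bases before the start. The ABL1 window is 78.3% G+C and holds no AP-1 match but 2 SP matches that lie end to end. The BCAR1 window (60.7% G+C) holds 1 AP-1 match, 64 bases before the start, and the other 4 windows of BCAR1 hold none. The windows of CRK, CRKL, ABI1, ABI2 and RIN1 hold no AP-1 match either. AP-1 letters occur in 7.71% of all 35116 windows of this length and SP letters in 45%. These shares are per window, and BCAR1 had more windows than the other genes. Whether any match bears on the levels was not tested. Each window covers a single annotated start, and the genes have others.

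Untreated levels per length set the scale of the family. In DMSO, CTTN was the highest at 51.3 ± 0.706 CPM per kb of exon (SD, n = 2), followed by CRK (38.2 ± 1.44) and WASF2 (32.4 ± 0.305). Next came ABL1 with 23.5 ± 0.279. ABI1 (21.1 ± 0.275), CRKL (20.1 ± 0.887), ABL2 (19.2 ± 1.24) and BCAR1 (17.8 ± 0.708) were close together, and the replicate ranges of CRKL and ABL2 overlapped. RIN1 (8.05 ± 1.08) and ABI2 (2.78 ± 0.0200) were the lowest. Before division by length, ABI2 (65.0 and 64.3 CPM) was above RIN1 (39.2 and 47.4 CPM). Its last place comes with 23275 exon bases in GENCODE v44, and its longest transcript has 22039. The annotation release used for the counting is not given. The order depends on the length used. Divided by the longest annotated transcript, ABL2 was at 26.2 CPM per kb and ABL1 at 24.4, so the order of the 2 kinases turned, and BCAR1 moved up to a place just below CRK with 35.1.

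Each hairpin lowered its own target to about the same depth. In shCtrl ABL1 was at 188 normalized CPM. It was at 72.2 with its own hairpin, 201 with ABL2 shRNA and 108 with ABL1/ABL2 shRNA. ABL1 shRNA thus left 38.3% of the shCtrl level of ABL1 (95% interval 35.4 to 41.4%, log2 ratio -1.38). These intervals come from the exact binomial comparison of the counts and cover counting error only. For ABL2 the shCtrl value was 234 normalized CPM, beside 211 with ABL1 shRNA, 92.7 with its own hairpin and 147 with ABL1/ABL2 shRNA. ABL2 shRNA left 39.6% of ABL2 (36.9 to 42.4%, log2 ratio -1.34), an interval that overlaps that of ABL1. In bulk RNA, fewer cells holding an mRNA and less of it per cell cannot be told apart.

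The ABL1/ABL2 shRNA line was less depleted for each kinase than the line with that kinase's own hairpin alone. For both kinases its level lay between those of the ABL1 shRNA and ABL2 shRNA samples. Whether each cell of that line held both hairpins was not tested. With ABL1/ABL2 shRNA, 57.6% of ABL1 (53.7 to 61.7%) and 62.5% of ABL2 (58.8 to 66.4%) were left. ABL1 was 1.503-fold (1.38 to 1.64) higher there than with ABL1 shRNA alone. ABL2 was 1.58-fold (1.47 to 1.70) higher than with ABL2 shRNA alone. Neither kinase therefore passed the 2-fold limit in that line, whereas ABL1 with its own hairpin and ABL2 with its own did. The limit was passed by 8.57% of the 18275 genes kept for ABL1 shRNA against shCtrl, by 7.57% for ABL2 shRNA and by 7.68% for ABL1/ABL2 shRNA.

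The paralog that was not targeted stayed near its shCtrl level. ABL2 was at 89.9% of shCtrl (85.2 to 94.9%) with ABL1 shRNA. ABL1 was at 107% (101 to 113%) with ABL2 shRNA. Both intervals leave out 100%, that of ABL1 narrowly. The log2 ratios of -0.15 and 0.09 were smaller than the typical distance between these libraries. Among the 6219 genes that never fell under 244 counts in a sample, the lowest count of any of the 10 genes, the median absolute log2 ratio to shCtrl was 0.21 for ABL1 shRNA and 0.18 for ABL2 shRNA. It was 0.06 between the DMSO replicates.

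Because the 2 kinases can act on the same substrates, their levels per kb of exon were also added. The sum was 41.0 in shCtrl and 23.0, 34.3 and 24.3 in the ABL1, ABL2 and ABL1/ABL2 shRNA samples, that is 56.0%, 83.6% and 59.3% of shCtrl. ABL1/ABL2 shRNA thus left about as much summed kinase mRNA as ABL1 shRNA, though in another composition. The ABL2 share of the sum was 34.3% in shCtrl and 55.0%, 16.2% and 36.2% in the same 3 knockdowns. Divided by the longest transcript, the sums were 59.3%, 79.4% and 59.6% of shCtrl. In DMSO the sums were 43.8 and 41.6, and after Ponatinib 35.0 and 37.8, or 81.9% and 88.6% of the DMSO mean. ABL2 made up 45.9% and 44.1% of the sum in the DMSO samples and 25.3% and 26.8% in the Ponatinib samples.

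**Figure D1:**
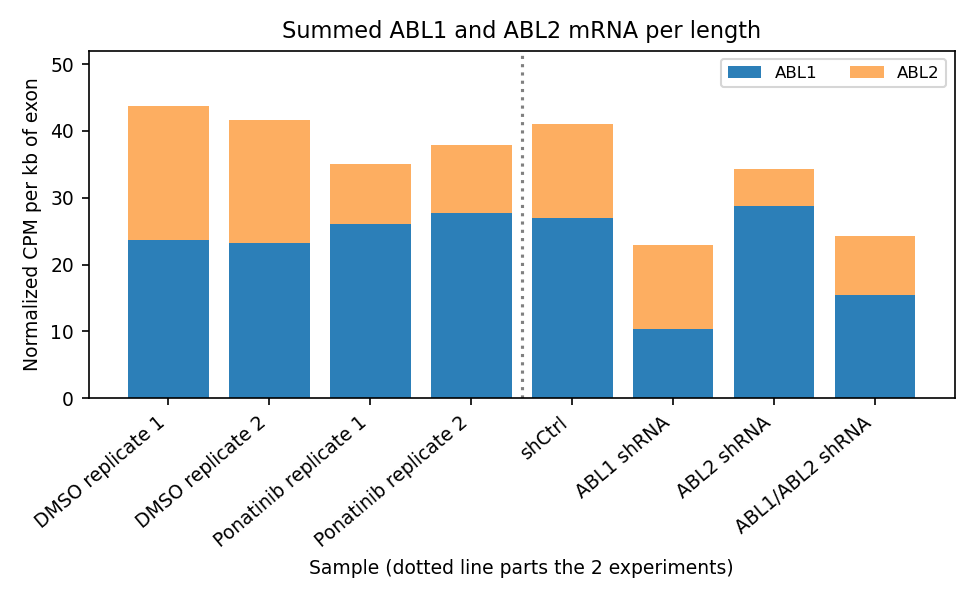
Stacked bars give ABL1 (lower part) and ABL2 (upper part) in normalized CPM per kb of exon for each of the 8 samples, with a dotted line between the drug and knockdown experiments. The bars for ABL1 shRNA and ABL1/ABL2 shRNA reach 23.0 and 24.3, beside 41.0 in shCtrl, and the Ponatinib bars are lower than the DMSO bars through their ABL2 part.

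The 8 adaptors and substrates kept within 2-fold of shCtrl in every knockdown. Their log2 ratios ran from -0.57 to 0.36 with ABL1 shRNA, from -0.27 to 0.78 with ABL2 shRNA and from -0.44 to 0.53 with ABL1/ABL2 shRNA. The counting intervals left out 100% for 5 of the 8 genes with ABL1 shRNA (2 above, 3 below), 5 with ABL2 shRNA (3 above, 2 below) and 7 with ABL1/ABL2 shRNA (3 above, 4 below). No such count was made over all genes, so these counts are not a result about the 8 genes. Among the 6219 genes described above, the median absolute log2 ratio to shCtrl was 0.21, 0.18 and 0.19 in the same order. For 95% of these genes the absolute log2 ratio to shCtrl stayed within 0.80, 0.65 and 0.72. Of the 8 adaptors and substrates, only RIN1 in the ABL2 shRNA sample (log2 ratio 0.78) lay outside these limits. Replicate libraries differed too, and 95% of the 6219 genes lay within an absolute log2 ratio of 0.17 between the DMSO replicates and 0.28 between the Ponatinib replicates. At a lower limit of 1.5-fold, 1 of the 10 genes was past it with ABL1 shRNA (ABL1), 2 with ABL2 shRNA (ABL2 and RIN1) and 2 with ABL1/ABL2 shRNA (ABL1 and ABL2), beside 22.5%, 18.9% and 20% of all genes.

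CTTN was the substrate with the lowest ratio. It was at 403 CPM in shCtrl, and the ABL1, ABL2 and ABL1/ABL2 shRNA samples were at 272, 356 and 297 CPM. All 3 knockdowns were below shCtrl, at 67.5% (64.6 to 70.6%), 88.2% (84.6 to 91.9%) and 73.7% (70.6 to 77.0%). Of all genes, 27% were lower in all 3 knockdowns. Set against each other, ABL1 shRNA had 76.6% of the CTTN level of ABL2 shRNA (73.3 to 80.0%), a comparison that does not use shCtrl.

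RIN1 showed the reverse and had the fewest counts of the 10 genes. The shCtrl sample held 244 counts of it, and the ABL1, ABL2 and ABL1/ABL2 shRNA samples held 315, 463 and 376, or 21.3, 24.1, 36.5 and 30.7 CPM. It was at 171% of shCtrl (146 to 201%) with ABL2 shRNA and at 144% (122 to 170%) with ABL1/ABL2 shRNA, while the interval with ABL1 shRNA (95.4 to 134%) held 100%. Higher values in all 3 knockdowns were found for 26.2% of all genes. Compared directly, ABL1 shRNA had 66.0% of the RIN1 level of ABL2 shRNA (57.0 to 76.4%). In DMSO RIN1 was at 39.2 and 47.4 CPM, above every shRNA sample, with shCtrl the furthest below. Whether shCtrl or the hairpins account for the ratios was not tested. The DMSO replicates of RIN1 differed by a log2 ratio of -0.27, the widest replicate gap of the 10 genes.

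WASF2 and ABI2, both of the WAVE complex, had opposite orders in the 2 lines with a single hairpin. WASF2 was at 242 CPM in shCtrl and, with the ABL1, ABL2 and ABL1/ABL2 hairpins, at 310, 201 and 267 CPM. That is 128% of shCtrl (122 to 134%) with ABL1 shRNA and 83.0% (78.6 to 87.6%) with ABL2 shRNA. ABI2, whose antisense overlap is given above, was at 78.3, 62.9, 88.7 and 68.3 CPM in the same order, with 80.3% (72.9 to 88.4%) of shCtrl for ABL1 shRNA and 113% (104 to 124%) for ABL2 shRNA. Its paralog ABI1 ranged only from 88.2% (80.9 to 96.2%) to 96.9% of shCtrl.

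BCAR1 was higher with ABL1/ABL2 shRNA, at 127% of shCtrl (120 to 135%), and lay at 112% with ABL1 shRNA and 97.4% with ABL2 shRNA. Its CPM in these samples was 226, 200 and 173, beside 178 in shCtrl. The CRK adaptors stayed near shCtrl. CRK lay between 92.0% and 110% of shCtrl and CRKL between 91.7% and 97.9%.

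**Figure D2:**
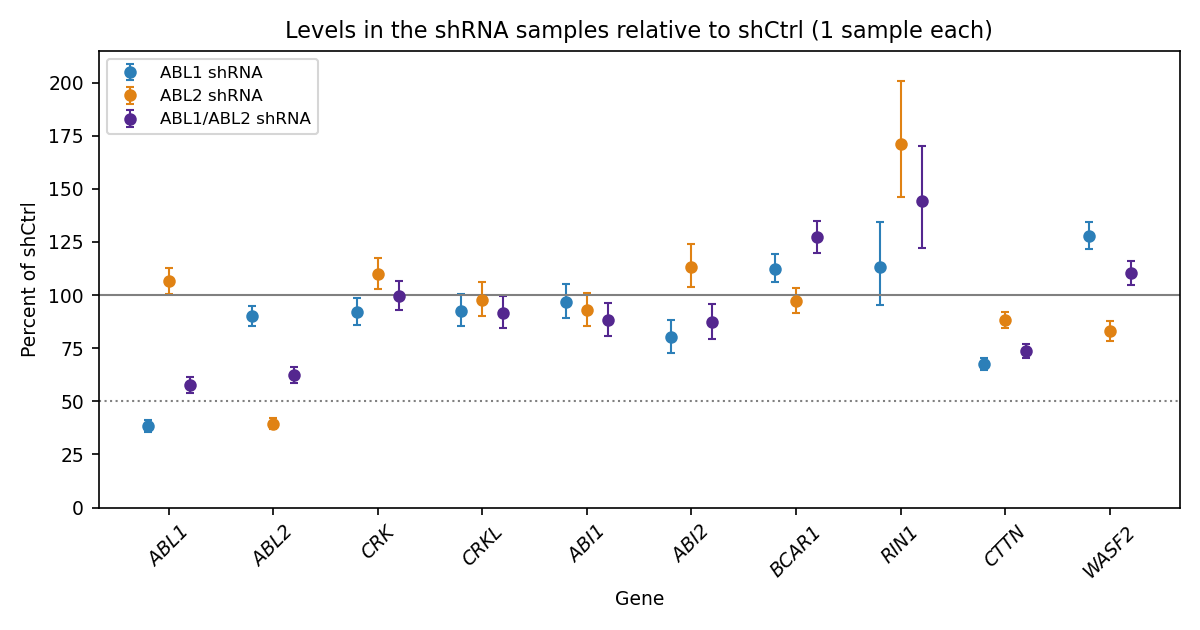
Points give the level of each of the 10 genes as a percent of shCtrl with ABL1 shRNA, ABL2 shRNA and ABL1/ABL2 shRNA (1 sample each), with 95% counting intervals as bars; the solid line marks 100% and the dotted line 50%. The targeted kinases with their own hairpins are the only points below 50%, ABL1/ABL2 shRNA lies above each kinase's own hairpin, and RIN1 reaches 171% with ABL2 shRNA.

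Around these genes, 5 hand-written lists were followed: the WAVE complex, the Cas, CRK and DOCK module, the cortactin, N-WASP and ARP2/3 genes, the RIN and RAB5 module, and other ABL binders, substrates and phosphatases. Without the 10 genes they hold 82 genes, of which 74 had enough counts in the knockdown samples. Past 2-fold, 1 gene was higher and 3 were lower with ABL1 shRNA, 1 higher and 1 lower with ABL2 shRNA, and 1 higher and 3 lower with ABL1/ABL2 shRNA. Over all genes, 8.57%, 7.57% and 7.68% were past 2-fold in either direction in the same order. The shares were lower, at 2.09%, 1.32% and 1.21%, for the 6219 genes that stayed at 244 counts or more throughout. Some of the 74 genes fell under 244 counts and others did not, so neither share is matched to the lists. Whether the lists exceed genes of like counts was not tested. The median log2 ratios of these 74 genes were -0.04, -0.07 and -0.04, beside 0.00, -0.01 and 0.00 over all genes. WASF3, another WAVE protein gene, was past 2-fold higher in all 3 knockdowns, with 43 counts in shCtrl and 126, 112 and 105 in the ABL1, ABL2 and ABL1/ABL2 shRNA samples (log2 ratios 1.36, 1.23 and 1.19). NEDD9, the Cas family paralog of BCAR1, was past 2-fold lower in all 3, with 204 counts in shCtrl and 88, 59 and 70 in the knockdowns (log2 ratios -1.40, -1.94 and -1.64). Over all genes, 1.32% were past 2-fold higher and 0.892% past 2-fold lower in all 3 knockdowns. WASF3 was at 8.14 and 8.91 CPM in DMSO, 3.75 in shCtrl and 9.64, 8.82 and 8.57 in the knockdowns. NEDD9 was at 2.83 and 2.84 CPM in DMSO, 17.8 in shCtrl and 6.73, 4.65 and 5.71 in the knockdowns. For both genes shCtrl lay further from DMSO than the knockdowns did. Whether shCtrl or the hairpins account for these ratios was not tested.

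ABL2 was the gene that fell most of the 10 after Ponatinib, while ABL1 rose slightly. Normalized ABL2 CPM was 335 and 306 in the DMSO samples and 148 and 169 in the Ponatinib samples, so the groups lie far apart. The mean went from 321 ± 20.7 (SD, n = 2) to 158 ± 15.2, which is 49.2% of DMSO (95% interval 44.1 to 55.0%, log2 fold change -1.02 ± 0.07 SE, edgeR quasi-likelihood test with Benjamini-Hochberg adjustment, adjusted p = 8.56e-08). The 2-fold limit falls within that interval, and without Ponatinib replicate 1 the log2 fold change was -0.91. ABL1 was at 166 and 163 CPM in DMSO and at 183 and 194 after Ponatinib, with no overlap. It rose by a log2 fold change of 0.19 ± 0.06 SE (edgeR adjusted p = 0.0287), a call that was lost with DESeq2 (adjusted p = 0.112). The call was also lost in both fits with 1 DMSO sample left. Leaving out 1 replicate at a time gave log2 fold changes of ABL1 from 0.15 to 0.25.

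Of the 10 genes, 4 passed an edgeR adjusted p of 0.05 after Ponatinib, beside 30.7% of the 16031 genes tested. Of these, 1 rose (ABL1), beside 15% of all genes, and 3 fell (ABL2, BCAR1 and CTTN), beside 15.7%. Only ABL2 also passed the 2-fold limit, as did 4.83% of all genes. The groups did not overlap for 8 of the 10 genes, beside 64.9% of all genes.

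BCAR1, the docking protein of the Cas family, fell next most. Its CPM was 159 and 168 in DMSO and 110 and 114 after Ponatinib. Both Ponatinib samples were well below both DMSO samples, at 68.6% of the DMSO mean (log2 fold change -0.54 ± 0.07 SE, edgeR adjusted p = 1.54e-05). ABL2 and BCAR1 passed the test in 12 of 12 alternatives, 4 of which left 1 sample in a group. In those 4 fits the log2 fold changes ran from -1.12 to -0.91 for ABL2 and from -0.58 to -0.50 for BCAR1. With library totals the edgeR adjusted p-values of ABL2 and BCAR1 were 1.87e-07 and 4.16e-05.

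CTTN, the cortactin gene, changed far less. It went from 353 and 360 CPM to 315 and 322 (log2 fold change -0.16 ± 0.06 SE, edgeR adjusted p = 0.0469). The groups did not overlap, but the call was lost in 6 of 12 alternatives, among them both fits with 1 DMSO sample left.

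The remaining 6 genes did not pass. CRK was at 160 and 151 CPM in DMSO and 135 and 147 after Ponatinib (log2 fold change -0.14, 95% interval -0.29 to 0.00, edgeR adjusted p = 0.122). Leaving out 1 replicate at a time gave log2 fold changes of CRK from -0.20 to -0.07. CRKL was at 111 and 104 CPM and then at 96.3 and 102 (log2 fold change -0.12, interval -0.26 to 0.03). For the WAVE complex subunit ABI1, values of 89.8 and 88.1 CPM stood beside 101 and 99.6 (log2 fold change 0.17, interval 0.03 to 0.31, edgeR adjusted p = 0.0558). Leaving out 1 replicate at a time gave log2 fold changes of ABI1 from 0.16 to 0.19. CRK, CRKL and ABI1 each had Ponatinib values on a single side of both DMSO values.

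WASF2 was at 185 and 183 CPM in DMSO and 197 and 200 after Ponatinib (log2 fold change 0.11, interval -0.02 to 0.24). ABI2 (65.0 and 64.3 against 67.4 and 62.6 CPM, log2 fold change 0.01, interval -0.15 to 0.17) and RIN1 (39.2 and 47.4 against 39.9 and 39.6 CPM, log2 fold change -0.12, interval -0.33 to 0.09) were the 2 genes whose groups overlapped. The intervals of these 6 genes leave out changes of more than 1.5-fold in either direction.

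**Figure D3:**
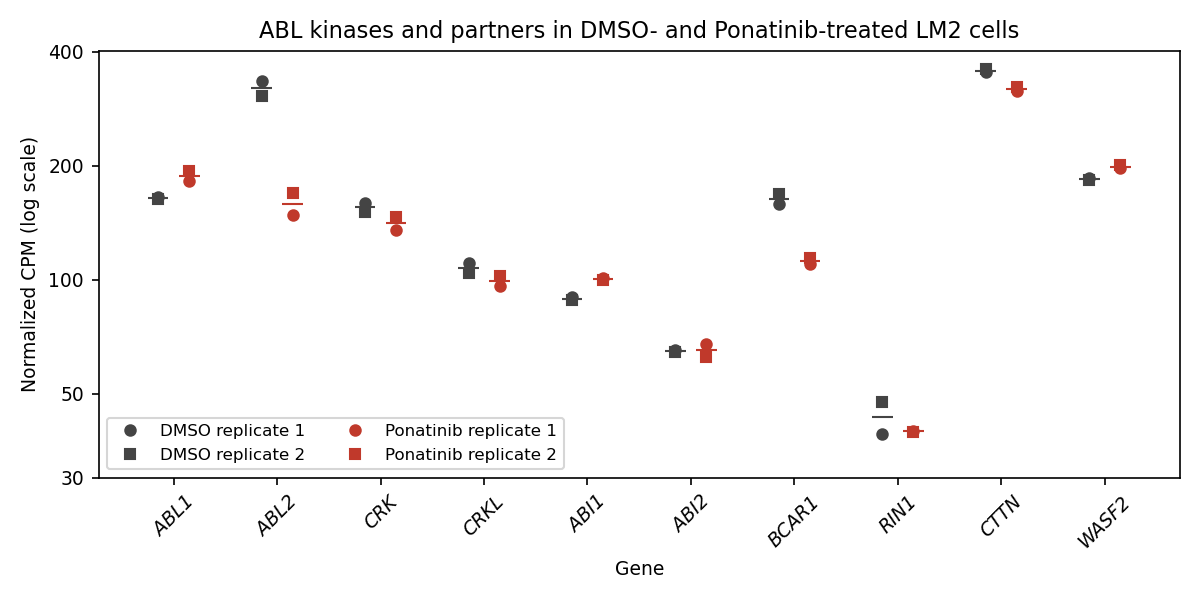
Normalized CPM (log axis) of the 10 genes in the DMSO (grey) and Ponatinib (red) samples, with circles for replicate 1, squares for replicate 2 and a short line for the mean of each group. ABL2 shows the widest gap, from 306 to 335 down to 148 to 169, BCAR1 the next, and ABI2 and RIN1 overlap.

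The surrounding lists passed the test about as often after Ponatinib as genes in general. Of their 72 genes tested without the 10, 13 rose, 13 fell and 46 did not pass, beside 15% of all genes that rose, 15.7% that fell and 30.7% in all, and their median log2 fold change was -0.03, beside 0.00 over all genes tested. None of the 9 WAVE complex genes tested passed (median 0.04). In the Cas, CRK and DOCK module, 2 of 18 rose and 5 fell (median -0.10), and in the cortactin, N-WASP and ARP2/3 list 3 of 19 rose and 4 fell (median -0.14), counts that include BCAR1 and CTTN. The RIN and RAB5 module had 1 of 9 higher and 2 lower (median -0.11), and the other ABL binders 7 of 25 higher and 4 lower (median 0.13).

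In the Cas module, BCAR3, an adaptor that binds BCAR1, fell more than BCAR1 itself, from 344 and 358 CPM to 160 and 161 (log2 fold change -1.13 ± 0.06 SE, edgeR adjusted p = 3.21e-09). In the knockdowns BCAR3 was higher than in shCtrl, at 384, 321 and 396 CPM in the ABL1, ABL2 and ABL1/ABL2 shRNA samples beside 249 CPM. The shCtrl value was also below both DMSO values, and 26.2% of all genes were higher in all 3 knockdowns. PXN, which encodes the adhesion scaffold paxillin, fell from 394 and 398 CPM to 264 and 263 (log2 fold change -0.59). DOCK3, a RAC exchange factor gene, rose from 3.89 and 5.57 CPM to 9.60 and 11.8 (log2 fold change 1.18 ± 0.21 SE, edgeR adjusted p = 0.000483). It was at 4.28 CPM in shCtrl and at 5.58, 4.02 and 5.47 in the same 3 knockdowns.

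Outside the Cas module, 2 further genes passed with a fold over 2. SH3PXD2B, an invadopodia scaffold gene, rose from 16.2 and 15.1 CPM to 38.8 and 37.4 (log2 fold change 1.28 ± 0.10 SE, edgeR adjusted p = 2.86e-07). CBLB, a ubiquitin ligase gene, rose from 12.3 and 12.2 CPM to 24.8 and 26.4 (log2 fold change 1.06 ± 0.12 SE, edgeR adjusted p = 8.39e-06). For both genes the Ponatinib values lay above the DMSO values without overlap. In the knockdowns CBLB was lower than in shCtrl, at 27.5, 40.4 and 26.3 CPM in the ABL1, ABL2 and ABL1/ABL2 shRNA samples beside 62.6 CPM. The DMSO values of CBLB were below every shRNA sample, and 27% of all genes were lower in all 3 knockdowns. SH3PXD2B was at 53.6 CPM in shCtrl and at 43.4, 51.2 and 48.7 in the same knockdowns. Whether shCtrl or the hairpins account for these values was not tested.

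**Figure D4:**
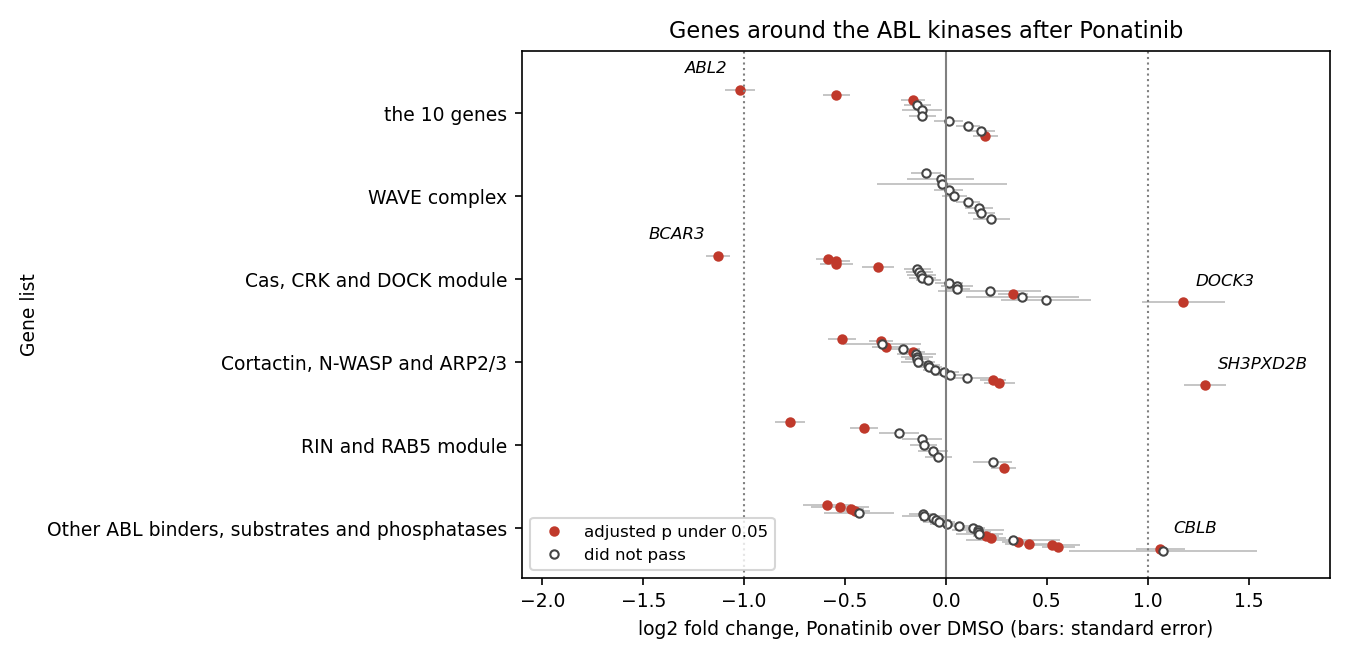
Log2 fold changes of Ponatinib over DMSO with standard errors for the 10 genes and the 5 lists, in which the 10 genes appear again; red points passed an edgeR adjusted p of 0.05 and open points did not, and dotted lines mark 2-fold. No point of the WAVE complex passed, and ABL2 (-1.02), BCAR3 (-1.13), DOCK3 (1.18), SH3PXD2B (1.28) and CBLB (1.06) are the genes that passed with a fold over 2.

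The genes whose pattern was most like that of each kinase were sought over all 8 samples, with log2 CPM centred within the drug and the knockdown experiment, among 10519 genes with at least 100 counts on average. For ABL1 these were RBBP5 (Pearson r = 0.998), ATP2C1 (0.997) and LNPK (0.995). For ABL2 they were NDUFAF6 (0.998), NUP160 (0.994) and LIMA1 (0.993), and the centred log2 CPM of LIMA1 was 0.21 and 0.12 in DMSO, -0.18 and -0.15 after Ponatinib, 0.20 in shCtrl, and 0.10, -0.25 and -0.04 in the ABL1, ABL2 and ABL1/ABL2 shRNA samples. These are the highest values of a search over many genes in 8 samples that share libraries, and they are given as a description.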

How the data were processed

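RNA from 8 LM2 samples was sequenced, and the authors deposited raw counts of reads per gene, 1 file per sample and without normalization. The submitters' processing notes name TopHat, HTSeq 0.6.0 and the build hg38. The annotation release, the strand setting and other versions are not given in the sources used here. The no-feature (9.48 to 9.90%) and ambiguous (6.12 to 6.32%) rows at the end of the shRNA files were left out, and the DMSO and Ponatinib files hold no such rows. Of 58688 gene identifiers, 54836 were matched to a symbol.

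Ponatinib was compared with DMSO in its 4 samples with edgeR 4.0.16 in R 4.3.3 (TMM scaling, filterByExpr, quasi-likelihood test), with p-values adjusted by the Benjamini-Hochberg method over all 16031 genes. Each knockdown is a single sample, so its TMM-scaled ratio to shCtrl carries a 95% exact binomial interval, has no test, and was called past 2-fold. No gene was tested between drug and knockdown samples. PECAM1 ranges of the 2 experiments were set side by side, as were DMSO and shRNA values of WASF3, NEDD9, RIN1, BCAR3 and CBLB. The spread between drug replicates was set beside the knockdown ratios. TMM factors came from the 4 drug samples for drug values and from all 8 samples for knockdown values. Lengths and positions are from GENCODE v44 on GRCh38. Alternatives were other scalings and filters, DESeq2 1.42.0, the replicate block, a fit of all 8 samples and leaving out each replicate.

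The 10 genes and the lists were chosen with earlier results of these data known. The text names the 10 genes, list genes with an adjusted p under 0.05 and a fold over 2 after Ponatinib, list genes past 2-fold the same way in all 3 knockdowns with at least 100 counts in the higher sample, and the 3 genes most like each kinase in pattern. PXN, the knockdown values of BCAR3, CBLB, DOCK3 and SH3PXD2B, and the DMSO values set beside shRNA samples were added after their values were seen.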

Additional observations from a re-analysis of the deposited data

How the results depend on the processing

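Of the 10 genes, 4 passed after Ponatinib, beside 4917 of all 16031 genes tested. With the DESeq2 Wald test 2 of the 10 passed, beside 2576 of all 30424 genes in that fit. Leaving out each replicate gave from 2 to 6. Without DMSO replicate 1 or DMSO replicate 2 the 2 that passed were ABL2 and BCAR1. Among all genes, too, fewer passed without a DMSO sample than without a Ponatinib sample. The range over the left-out replicates is therefore not a result about the 10 genes. With the replicate block, 3 of the 10 passed, CTTN being lost (edgeR adjusted p = 0.0678). No shared deviation was seen between samples of the same replicate number (r of deviations = -0.02 across 9421 genes). The labels do not say whether the samples were paired. CTTN was also lost with DESeq2's size factors in edgeR (adjusted p = 0.0503), library totals (0.142) and DESeq2 (0.0922), and ABI1 passed with library totals (0.0194). An edgeR fit of all 8 samples has no replicate in any knockdown or in shCtrl and assumes that these samples vary like the drug pairs, so it is no test of the knockdowns. It put 4, 3 and 5 of the 10 genes under an adjusted p of 0.05 in the ABL1, ABL2 and ABL1/ABL2 shRNA samples, with 4015, 2845 and 3261 of all 18275 genes, against 1, 1 and 0 of the 10 past 2-fold. A 1.5-fold limit gave 2 with ABL2 shRNA and 2 with ABL1/ABL2 shRNA. With ABL1 shRNA as the comparison sample in place of shCtrl, ABL2 was left at 43.98% with ABL2 shRNA and 69.5% with ABL1/ABL2 shRNA. Other scalings moved no knockdown log2 ratio of the 10 genes by more than 0.05, and no direction turned for any called value. The lost calls' causes were not tested. Depth limits RIN1 most, and the knockdown values have no replicate check.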
